A study of Homo sapiens with 4 samples.

Results

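The expression of 39 interferon-related and antiviral genes was followed through hematopoietic differentiation of the human iPSC (induced pluripotent stem cell) line BC1. The genes were taken by symbol from the table of expression values, which held 58274 gene identifiers. All 39 were found, each on a single row. They comprised 4 interferon receptor subunits, 7 transcription factors, 3 nucleic acid sensors, 9 effectors that act on RNA or nucleotides, 4 restriction factors of cell membranes, 3 GTPases, 2 subunits of the immunoproteasome and 7 other interferon-stimulated genes. Undifferentiated BC1 cells were compared with APLNR+ mesoderm cells of day 2, CD31+CD34+ hemogenic endothelial progenitors (HEPs) of day 5 and CD43+ hematopoietic progenitor cells (HPCs) of day 8. Per the labels, mesoderm was induced with 40 ng/ml activin A and 50 ng/ml BMP4 for 2 days, whereas the study's methods give these amounts the other way round, and the cells were then kept in 40 ng/ml VEGF and 50 ng/ml bFGF for up to 6 more days. The labels name no interferon, interferon inhibitor or virus among the additions. Each population was measured in 1 library, all from a single line, so no difference below has a replicate check and no p-value is given. Population, day and medium changed together and cannot be told apart.

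Interferons are secreted proteins that switch on antiviral genes in the cells they reach. Type I interferons bind the receptor of IFNAR1 and IFNAR2, and interferon gamma binds that of IFNGR1 and IFNGR2. The type I receptor acts through the kinases JAK1 and TYK2 on the complex ISGF3, which holds STAT2 and IRF9 and binds the interferon-stimulated response element (ISRE) of its target genes. The GAS element is the counterpart in genes that respond to interferon gamma. Pluripotent stem cells are known to express some interferon-stimulated genes without added interferon and to respond weakly to it.

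RefSeq promoter windows (GRCh38.p14) ran from 250 bases before to 50 bases after the start of the gene. They were matched for 19 of the 39 members, by symbol or, for DDX58, by its synonym RIGI. Of these 19, 13 rose and 6 did not rise from CD31+CD34+ to CD43+ cells. The ISRE core was searched as GAAANNGAA and the GAS core as TTCNNNGAA, on both strands. The ISRE core was found in 10 of the 19 windows, beside 8.11% of all 35116 windows, and 9 of the 19 held at least 2 matches, beside 0.701% of all windows. The GAS core was found in 6 of the 19, beside 7.66%. The 200 bases before the start are shown for 4 genes, ISG15 (chr1:1013297-1013496, plus strand), IFI6 (chr1:27672193-27672392, minus strand) and IFIT1 (chr10:89392423-89392622, plus strand), which were among the largest rises in CD43+ cells, and BST2 (chr19:17405631-17405830, minus strand), which was highest in CD31+CD34+ cells. Capitals mark ISRE core matches on either strand, and adjoining capitals are overlapping matches.
ISG15: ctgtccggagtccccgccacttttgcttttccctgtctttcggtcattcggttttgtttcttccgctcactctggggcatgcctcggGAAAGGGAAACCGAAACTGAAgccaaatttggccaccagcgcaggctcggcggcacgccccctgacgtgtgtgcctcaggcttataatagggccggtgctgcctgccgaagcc
IFI6: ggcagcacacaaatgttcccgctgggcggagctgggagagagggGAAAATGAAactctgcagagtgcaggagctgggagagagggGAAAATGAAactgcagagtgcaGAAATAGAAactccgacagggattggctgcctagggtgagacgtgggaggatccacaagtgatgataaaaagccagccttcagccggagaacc
IFIT1: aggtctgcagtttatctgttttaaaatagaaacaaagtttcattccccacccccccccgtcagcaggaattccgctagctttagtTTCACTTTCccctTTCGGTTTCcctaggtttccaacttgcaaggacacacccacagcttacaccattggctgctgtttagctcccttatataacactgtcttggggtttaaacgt
BST2: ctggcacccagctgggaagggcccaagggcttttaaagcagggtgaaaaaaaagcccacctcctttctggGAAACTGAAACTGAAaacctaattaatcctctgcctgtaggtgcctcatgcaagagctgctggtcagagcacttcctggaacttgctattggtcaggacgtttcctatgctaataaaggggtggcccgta
ISG15 held 3 overlapping matches in 1 run, IFI6 3 separate ones and IFIT1 2 on the opposite strand. In BST2, 2 overlapping matches lay between positions -130 and -116, counted from the start. A match is a description of the letters and does not show that a factor binds there. The lack of a match does not show that a window has no such element, because variants of the strings were not searched.

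**Figure D1:**
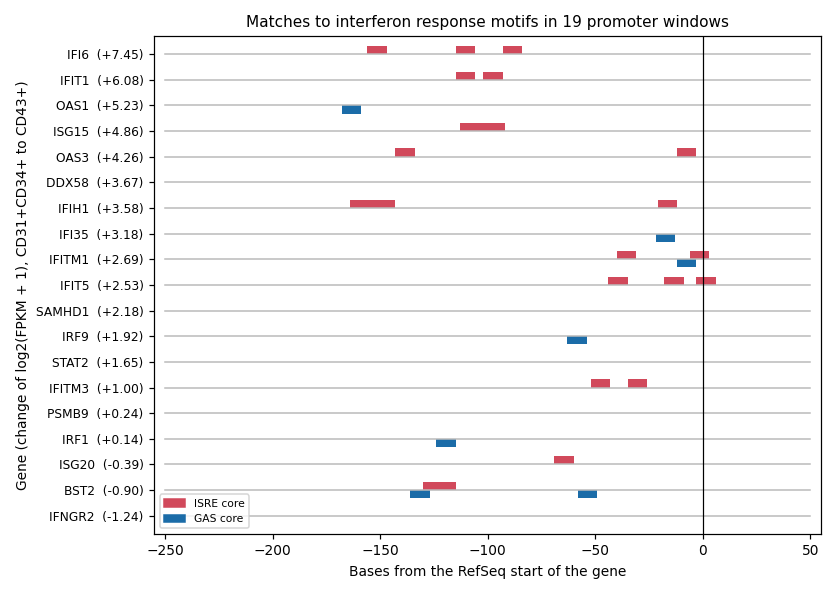
Matches to the ISRE core (red) and the GAS core (blue) in 19 RefSeq promoter windows, by distance in bases from the start of the gene (vertical line). Genes are ordered by the change of log2(FPKM + 1) from CD31+CD34+ to CD43+ cells, given in parentheses. IFI6, IFIT1 and ISG15 near the top hold ISRE cores between positions -156 and -85, while BST2, which was lower in CD43+ cells, holds them as well. OAS1, DDX58 and IFI35, with changes of 5.23, 3.67 and 3.18, hold no match to the string GAAANNGAA. Elements with another spacing were not searched.

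Levels are given in FPKM, the number of fragments divided by transcript length in kilobases and by the mapped fragments in units of 1000000, which allows genes of different length to be compared. The depth recovered from the values was 19400000 to 23200000 mapped fragments per library, and between 13554 and 14335 genes had at least 1 FPKM. Each population carried the gene of its sorting marker, with 1073 FPKM of APLNR at day 2, 102 FPKM of CD34 at day 5 and 92.4 FPKM of SPN, the gene of CD43, at day 8. Changes are differences of log2(FPKM + 1), which understate the change of low genes. A gene is said to rise or fall when it changed by at least 1 on this scale. Folds are ratios of FPKM, with exact Clopper-Pearson 95% intervals from the fragments behind them, which cover counting error only.

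Most interferon-related genes, like most protein-coding genes, were detected before the CD43+ stage, many at low levels, and most members rose at that stage. At least 10 FPKM was kept in every library by 6 members (BST2, IFITM1, IFITM2, IFITM3, IRF3 and ISG15), and 8 members (DDX58, IFI35, IFIH1, IFIT1, IFIT3, IFIT5, MX1 and OAS2) stayed under 5 FPKM in the first 3 libraries and reached 10 FPKM in CD43+ cells. Of the 39 members, 26 had at least 1 FPKM in BC1, 28 had it at the APLNR+ stage, 27 as HEPs formed and 36 in CD43+ HPCs. Among all protein-coding genes, 62.6%, 61.6%, 62.0% and 58.7% had it in these libraries. At least 10 FPKM was reached by 8, 10, 13 and 26 members in the same libraries. The highest of the 4 values was in CD43+ cells for 27 members (69.2%), whereas 24.04% of all 17137 genes with at least 1 FPKM in some library were highest there. From CD31+CD34+ to CD43+ cells, 24 of the 39 members rose, beside 7.63% of all genes, and 3 fell, beside 13.5%. The median change of the members at this step was 1.92, that of all genes -0.08. The earlier steps moved fewer members. From BC1 to APLNR+ cells 3 members rose and 6 fell, beside 9.15% and 9.32% of all genes, and from APLNR+ to CD31+CD34+ cells 8 rose and 1 fell, beside 13.0% and 11.4%. Their median changes were -0.20 and 0.33, those of all genes 0.00 and 0.01. Between the ends of the path, BC1 and CD43+, 25 members rose and 1 fell, beside 15.2% and 18.9%. The 39 members together held 0.132% of the summed FPKM of BC1, and then 0.0923%, 0.258% and 0.962% along the path. The plot of all values by library shows the block of dark rows that turned bright in the CD43+ column.

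**Figure D2:**
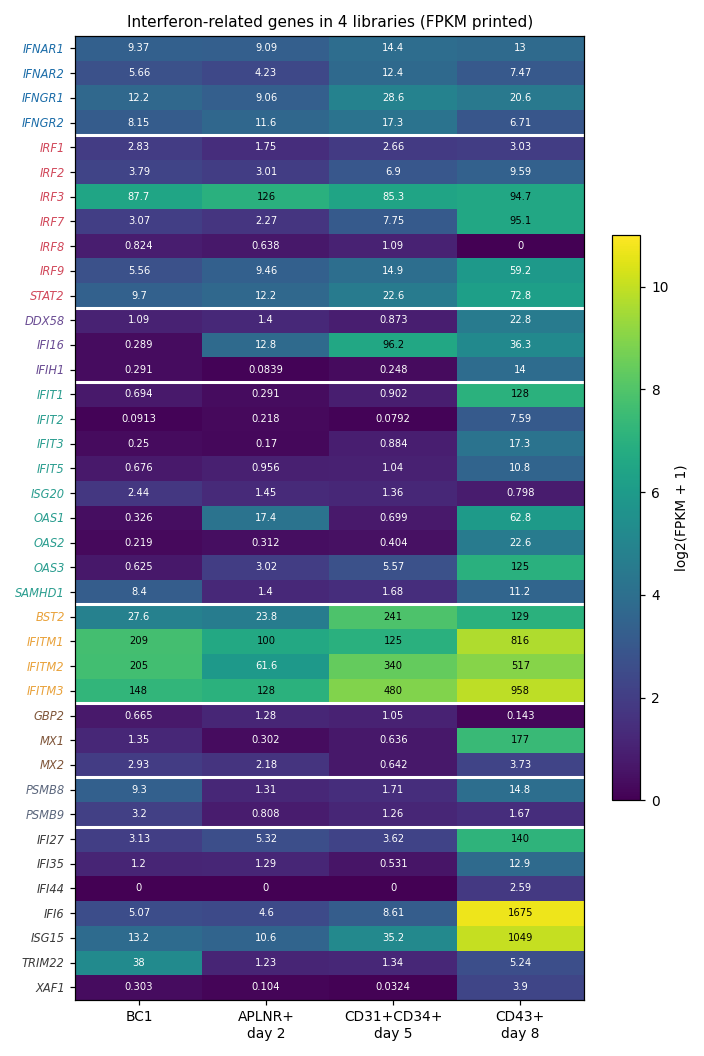
Levels of the 39 members in the 4 libraries, as colour on the log2(FPKM + 1) scale with the FPKM printed in each cell. Rows are grouped by role, from receptors at the top to other interferon-stimulated genes at the bottom, and white lines part the groups. IFI6 and ISG15 reached 1675 and 1049 FPKM in CD43+ cells, while IFITM1, IFITM2 and IFITM3 were at 61.6 FPKM or more in every library.

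The receptor genes were expressed in every population and did not rise at the last step. IFNAR1, the first subunit of the type I receptor, was at 9.37, 9.09, 14.4 and 12.98 FPKM, in the order of BC1, APLNR+, CD31+CD34+ and CD43+ cells that is kept below. IFNAR2, its partner, was at 5.66, 4.23, 12.4 and 7.47 FPKM. The ligand-binding subunit of the interferon gamma receptor, IFNGR1, was at 12.2, 9.06, 28.6 and 20.6 FPKM. IFNAR2 and IFNGR1 thus rose from APLNR+ to CD31+CD34+ cells, 2.93-fold (2.34 to 3.71) and 3.16-fold (2.80 to 3.56), and all 4 receptor genes were highest in CD31+CD34+ cells. IFNGR2, the signaling subunit, was at 8.15, 11.6, 17.3 and 6.71 FPKM and fell 2.57-fold (2.19 to 3.03) in CD43+ cells. The receptors therefore did not share the rise of most members at the last step, with changes from -0.14 to -1.24. By the threshold used, only IFNGR2 fell, 1 of 4, beside 13.5% of all genes. Of the 50-base words in the coding transcripts of IFNAR2, 43.1% also occur in transcripts of another gene entry, so its values are less certain. IFNGR2 shares 380 exon bases with TMEM50B on the opposite strand.

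Among the transcription factors, the components and the amplifier of the type I pathway rose, and the constitutive sensor factor stayed level. IRF3, which is activated by viral sensors and needs no induction, was at 87.7, 126, 85.3 and 94.7 FPKM, the highest of the 7 factors in the first 3 libraries, with a range under 1 on the log2 scale. Its exons share 734 bases with BCL2L12 on the opposite strand, which was at 67.9 to 133 FPKM, and reads of both cannot be told apart without strand. IRF7, an interferon-induced amplifier of interferon production, was at 3.07, 2.27, 7.75 and 95.1 FPKM. Its last step was 12.3-fold (10.9 to 13.9), and IRF7 reached the level of IRF3 in CD43+ cells. STAT2 went up gradually, at 9.70, 12.2, 22.6 and 72.8 FPKM, and rose 3.22-fold (3.04 to 3.42) at the last step. IRF9, the DNA-binding partner in ISGF3, was at 5.56, 9.46, 14.9 and 59.2 FPKM and rose 3.97-fold (3.38 to 4.67), although 82.7% of its words are shared with the read-through entry AL136295.5. IRF1, a factor more closely tied to interferon gamma, was low at 2.83, 1.75, 2.66 and 3.03 FPKM. IRF2, which antagonizes IRF1, was at 3.79, 3.01, 6.90 and 9.59 FPKM. It rose between BC1 and CD43+ cells by 1.14, with no single step reaching 1. IRF8, a myeloid factor, was at 0.824, 0.638 and 1.09 FPKM before a value of 0 in the CD43+ library.

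The nucleic acid sensors did not share a pattern. DDX58 encodes RIG-I and IFIH1 encodes MDA5, the cytoplasmic sensors of viral RNA. DDX58 was at 1.09, 1.40, 0.873 and 22.8 FPKM, and IFIH1 at 0.291, 0.0839, 0.248 and 13.96 FPKM. Both were at 1.40 FPKM or less before CD43+ cells, where they rose 26.1-fold (20.9 to 33.1) and 56.3-fold (35.3 to 95.01). IFI16, a nuclear DNA sensor, was at 0.289, 12.8, 96.2 and 36.3 FPKM. It rose 44.1-fold (24.9 to 90.5) in APLNR+ cells and 7.54-fold (6.89 to 8.26) in CD31+CD34+ cells and then fell 2.65-fold (2.50 to 2.81).

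The membrane restriction factors were at 23.8 FPKM or more in every library. IFITM1, IFITM2 and IFITM3, which block the entry of enveloped viruses, were at 209, 205 and 148 FPKM in undifferentiated BC1 cells and together made up 67.6% of the summed FPKM of all 39 members there. In APLNR+ cells they were at 100, 61.6 and 128 FPKM, so that IFITM1 and IFITM2 fell 2.09-fold (1.95 to 2.24) and 3.33-fold (2.99 to 3.71) while IFITM3 changed by -0.20. In CD31+CD34+ cells IFITM2 and IFITM3 rose to 340 and 480 FPKM, and IFITM1 was at 125 FPKM. In CD43+ cells IFITM1 rose to 816 FPKM, 6.52-fold (6.18 to 6.87). IFITM2 was at 517 FPKM, and IFITM3 at 958 FPKM with a change of 0.997, just under the threshold, which it passed with median-of-ratios scaling of the libraries. The 3 neighbours thus switched order, with IFITM2 and IFITM3 going up before IFITM1. They are paralogs in a 19907-base cluster on chromosome 11 (307631 to 327537). IFITM1 and IFITM2 share 351 annotated exon bases, and 32.9%, 35.3% and 16.0% of the words of IFITM1, IFITM2 and IFITM3 occur in other genes, so how fragments were divided among them is uncertain. BST2, or tetherin, which holds budding virions at the cell surface, was at 27.6, 23.8, 241 and 129 FPKM. It rose 10.2-fold (9.13 to 11.3) in CD31+CD34+ cells and stood 1.87-fold lower (1.77 to 1.97) in CD43+ cells, a change of -0.90.

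**Figure D3:**
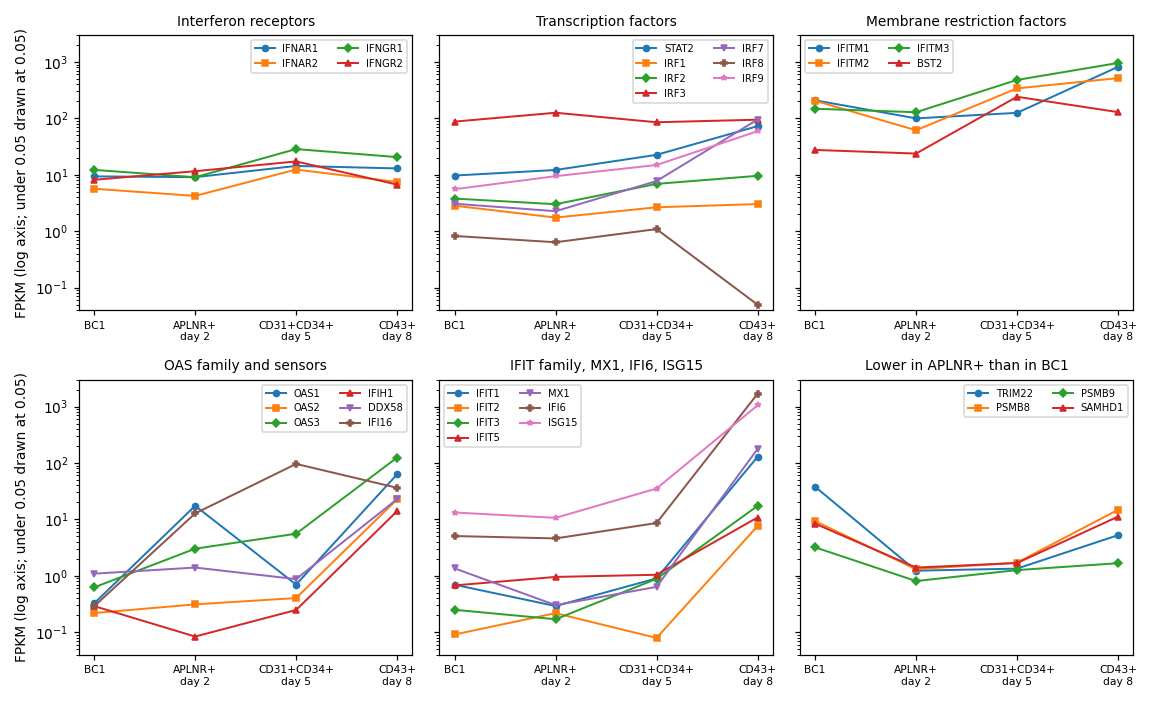
FPKM of 32 members on a log axis across the 4 libraries, in 6 panels by family or pattern. Each point is 1 library and values under 0.05 FPKM, such as IRF8 in CD43+ cells, are drawn at 0.05. The receptors and IRF3 stay within a narrow band, the membrane factors start above 20 FPKM, and the IFIT and OAS families rise in CD43+ cells.

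Of the RNA and nucleotide effectors, 8 of 9 rose at the last step, beside 7.63% of all genes. The IFIT genes encode proteins that bind viral RNA or block its translation. IFIT1 was at 0.694, 0.291, 0.902 and 128 FPKM and rose 142-fold (111 to 185) at the last step. IFIT3 was at 0.250, 0.170, 0.884 and 17.3 FPKM, and IFIT5 at 0.676, 0.956, 1.04 and 10.8 FPKM. They rose 19.6-fold (14.5 to 27.2) and 10.3-fold (8.29 to 12.9), so the members of this family differed in their rise by more than counting error. IFIT2, at 0.0913, 0.218, 0.0792 and 7.59 FPKM, also rose, by 2.99, a fold of 95.8 (43.0 to 258) from about 6 fragments. The 4 genes lie within 137308 bases on chromosome 10.

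The OAS genes encode enzymes that sense double-stranded RNA and activate RNase L. OAS1 had an isolated first peak, with 0.326, 17.4, 0.699 and 62.8 FPKM. Its rise in APLNR+ cells was 53.5-fold (22.8 to 219) and the fall after it 24.9-fold (13.6 to 50.3), the only fall of a member at that step. About 255 fragments stood behind the value in APLNR+ cells and 4 behind that in BC1. OAS2 stayed low until the last step, at 0.219, 0.312, 0.404 and 22.6 FPKM. OAS3 went up at each step, at 0.625, 3.02, 5.57 and 125 FPKM. Within their cluster on chromosome 12 (112906777 to 113011723), the 3 neighbours therefore had different early patterns, and all rose in CD43+ cells, 89.8-fold (49.7 to 180), 56.0-fold (37.3 to 85.8) and 22.4-fold (18.6 to 27.1) for OAS1, OAS2 and OAS3.

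SAMHD1, which depletes the nucleotides that reverse transcription needs, was at 8.40, 1.40, 1.68 and 11.2 FPKM. It fell by 1.97 in APLNR+ cells and rose 6.64-fold (5.22 to 8.50) in CD43+ cells. ISG20, a ribonuclease, was the RNA effector that did not rise at the last step, at 2.44, 1.45, 1.36 and 0.798 FPKM.

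MX1 and the ubiquitin-like ISG15 were among the strongest changes. MX1, a GTPase that traps viral nucleocapsids, was at 1.35, 0.302, 0.636 and 177 FPKM. Its 278-fold rise (151 to 629), from about 9 fragments, ranked 13th of 17137 genes at the last step on the log2 scale. Its neighbour MX2 was low throughout, at 2.93, 2.18, 0.642 and 3.73 FPKM, and rose by 1.53 at the last step. GBP2, the third GTPase and a gene mainly induced by interferon gamma, was at 0.665, 1.28, 1.05 and 0.143 FPKM. The GTPases thus held both a very large rise and a gene that was lowest in CD43+ cells.

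ISG15, which is conjugated to other proteins upon infection, was at 13.2, 10.6, 35.2 and 1049 FPKM. It rose at both later steps, 3.31-fold (2.62 to 4.18) and 29.8-fold (26.7 to 33.3). IFI6, a small antiviral membrane protein, was at 5.07, 4.60, 8.61 and 1675 FPKM. Its change of 7.45, a fold of 195 (162 to 238), was the largest of any member on the log2(FPKM + 1) scale and ranked 11th among all genes. By its level in CD43+ cells it stood 61st of all genes. IFI27, a related small membrane protein, was at 3.13, 5.32, 3.62 and 140 FPKM and rose 38.6-fold (26.8 to 58.1). IFI35 was at 1.20, 1.29, 0.531 and 12.9 FPKM and rose 24.3-fold (13.5 to 47.0). IFI44 was listed at 0 in the first 3 libraries and was at 2.59 FPKM in CD43+ cells. XAF1, a proapoptotic interferon-stimulated gene, was at 0.303, 0.104, 0.0324 and 3.90 FPKM. All 7 genes of this group, TRIM22 included, rose at the last step.

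**Figure D4:**
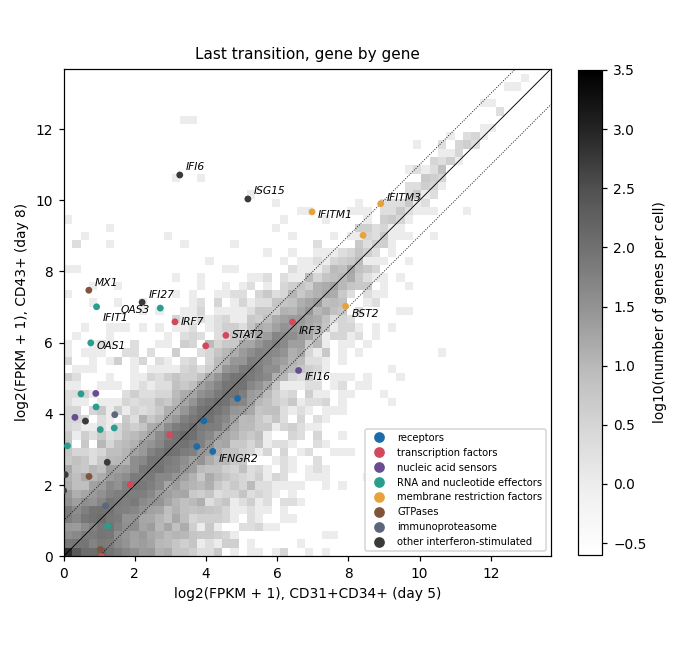
Levels in CD31+CD34+ (x axis) and CD43+ cells (y axis) on the log2(FPKM + 1) scale, with all 17137 genes as grey density and the 39 members as points coloured by role. The solid line marks equal levels and the dotted lines a change of 1. The 24 members above the upper dotted line include IFI6, MX1 and IFIT1, while IFI16 and IFNGR2 lie below the lower one.

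A smaller group was highest in pluripotent cells or lost at the first fate switch. TRIM22, a ubiquitin ligase of the tripartite motif family, was at 38.0, 1.23, 1.34 and 5.24 FPKM. It fell 30.8-fold (19.9 to 52.6) from BC1 to APLNR+ cells, and its level in CD43+ cells was still 7.24-fold lower (5.71 to 9.24) than in BC1. It was the only member that was lower by at least 1 in CD43+ cells than in BC1. Of its 50-base words, 15.5% also occur in transcripts of other genes, so its values are less certain. PSMB8 and PSMB9 encode inducible proteasome subunits that shape peptides for MHC class I. PSMB8 was at 9.30, 1.31, 1.71 and 14.8 FPKM. It fell by 2.15 and rose 8.63-fold (5.98 to 12.6) at the last step. PSMB9 was at 3.20, 0.808, 1.26 and 1.67 FPKM and did not rise again. PSMB8, SAMHD1 and TRIM22 shared the loss in APLNR+ cells, a low plateau in CD31+CD34+ cells and a rise in CD43+ cells, and their levels in APLNR+ and CD31+CD34+ cells differed by less than counting error, since the intervals of these folds included 1.

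**Figure D5:**
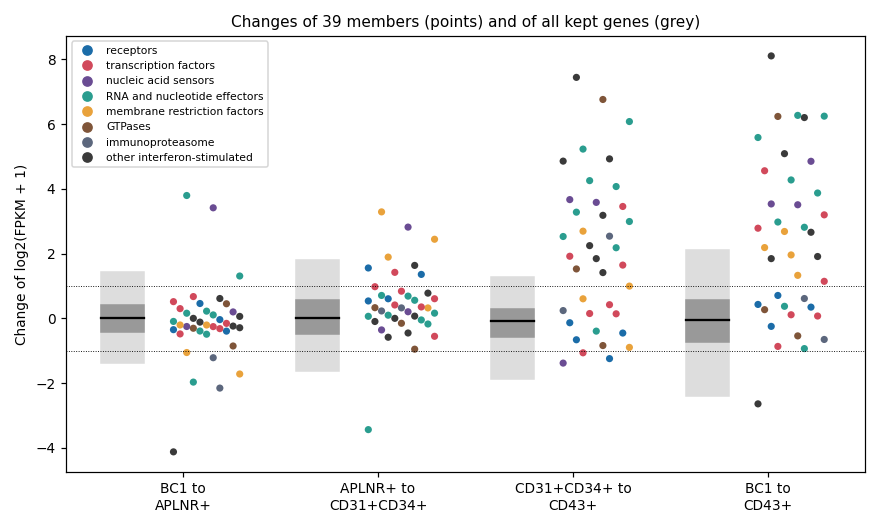
Changes of log2(FPKM + 1) of the 39 members (points, coloured by role) at the 3 consecutive steps and between BC1 and CD43+ cells, beside all 17137 genes (light grey, 5th to 95th percentile, dark grey, interquartile range, black line, median). Dotted lines mark changes of 1 in either direction. At the last step 24 points lie above the upper line, led by IFI6 at 7.45, while the median of all genes is -0.08.

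The rise in CD43+ cells was read by role. It held for 7 of 7 other interferon-stimulated genes, 8 of 9 RNA and nucleotide effectors, 2 of 3 sensors, 2 of 3 GTPases, 3 of 7 transcription factors, 1 of 2 immunoproteasome subunits, 1 of 4 membrane factors and 0 of 4 receptors. Of all genes, 7.63% rose at this step. Among the members, 13 rose by at least 3, beside 0.951% of all genes. Of the 24 that rose, 19 share no annotated exon base with another gene that had at least 1 FPKM in some library. The exceptions are IFITM1, IRF9, IFIT2, PSMB8, which shares 139 bases with PSMB9, and ISG15, which shares 36 bases with AL645608.4. The ISRE core string was in 7 of the 13 rising members with a promoter window and in 3 of the 6 others. Among these 3 was IFITM3, whose change of 0.997 was just under the threshold. The windows are too few, and missing for too many rising members, to compare these groups. IFI44, XAF1, IFIT2, MX2, IRF1, IRF2, IRF8, ISG20, PSMB9 and GBP2 were the 10 members that stayed under 10 FPKM in all 4 libraries.

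Other genes of the pathway, listed by function, were followed beside the members. Of 82 such genes, 49 passed 1 FPKM in some library. From CD31+CD34+ to CD43+ cells 24 of these 49 rose and 2 fell, beside 7.63% and 13.5% of all genes. The receptor kinases JAK1, at 7.21, 6.60, 44.6 and 37.5 FPKM, and TYK2, at 22.7, 24.3, 66.5 and 71.9 FPKM, both rose in CD31+CD34+ cells and changed by -0.24 and 0.11 at the last step. JAK2, a kinase of the interferon gamma receptor, was at 0.634, 1.12, 2.62 and 6.80 FPKM. Of 26 other interferon-stimulated effectors, 18 rose at the last step and 1 fell, beside the same shares of all genes. The largest of these rises were those of EPSTI1 (0.190 to 31.8 FPKM), PARP9 (0.841 to 38.9 FPKM) and TRIM25 (2.87 to 57.2 FPKM), while TRIM5 fell from 72.9 to 34.9 FPKM. The interferon genes themselves were hardly detected. Of 21 genes of type I, II and III interferons, 15 were listed at 0 in all 4 libraries. IFNB1, the gene of interferon beta, was listed at 0 in the first 3 and was at 0.563 FPKM in CD43+ cells, from about 7 fragments, and it was the only one above 3 fragments in any library.

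Many markers of blood lineages rose at the last step too, but several had already risen from APLNR+ to CD31+CD34+ cells. At that earlier step 4 of 5 erythroid, 3 of 5 megakaryocytic and all 5 hematopoietic progenitor markers rose, beside 13.0% of all genes. The 5 progenitor markers together then went from 217 to 1585 FPKM. The 5 erythroid markers together went from 29.2 to 11179 FPKM at the last step, and the 5 megakaryocytic markers from 33.2 to 2592 FPKM. All 10 rose. Of the 5 myeloid and macrophage markers, SPI1, CD68 and CSF1R rose, to 104, 21.6 and 8.80 FPKM, whereas CD14 and MPO were at 0.0339 and 0.0790 FPKM in CD43+ cells. The 5 lymphoid markers summed to 1.46 and 3.02 FPKM. Endothelial markers fell, 4 of 5, and the share of mitochondrial genes in the summed FPKM was 5.803% in CD31+CD34+ and 8.16% in CD43+ cells. The part of these lineages in the rise of the members was not tested. In such bulk libraries, a gene expressed by fewer cells and one with less RNA per cell cannot be told apart.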

How the data were processed

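RNA libraries were prepared by the authors from 2 ug of total RNA with an Illumina TruSeq kit. The authors deposited gene-level FPKM values, a unit taken from the study's plots and from the values. The submitters' processing notes name BWA, Bowtie, RSEM and hg19, without a role or an order, but 55645 of 55647 identifiers with the same version in GENCODE 29 had its GRCh38 start and end, so positions are on GRCh38, counted from 1. Strand use is not given in the sources used here.

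Rows of 1 identifier were summed (90 identifiers, no member). Genes with at least 1 FPKM in some library were kept, and changes of at least 1 in log2(FPKM + 1) were called, without a test. Depth was recovered from the steps between low FPKM values of single-transcript genes of at least 1000 bases, of which 85.3% to 86.8% fell within 0.1 of a whole fragment. Fragments were computed from the median length of a gene's protein-coding transcripts, with a floor of 3. The recovery of depth, the calls and the coverage of the intervals were tested on simulated data. The choice of transcript length and the floor were not tested there. Python 3.11.15, pandas 2.3.3 and scipy 1.17.1 were used.

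The members, lists and thresholds were chosen with earlier results of these data known. Every member was given in all 4 libraries. Of the other pathway genes, up to 3 with the largest called changes in each direction and at least 10 FPKM were named, with JAK1, JAK2 and TYK2; 1 further gene of this rule is not reported here. Alternatives changed the pseudocount, threshold, filter, scaling, transcript length, motif strand, row choice and average.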

Additional observations from a re-analysis of the deposited data

How the results depend on the processing

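Of 115 values recomputed under other settings, 102 stayed within 1.5 times the count, or within the binomial interval of the median. No median changed sign, and a count has no sign to change. Some of the 102 were fixed in advance. Dropping the filter changed nothing because all 39 members had passed it. Taking the highest row changed nothing because each member had a single row. The number of members rising from CD31+CD34+ to CD43+ cells was between 19, at a threshold of 2, and 25, with median-of-ratios scaling, and their median change between 1.92 and 2.66. Counts of falling members moved more. With a pseudocount of 0.1, 3 in place of 1 fell from APLNR+ to CD31+CD34+ cells and 4 in place of 1 between BC1 and CD43+. Rescaling to TPM, which makes the pseudocount weigh less, gave 2, 5 and 3 falls from APLNR+ to CD31+CD34+, from CD31+CD34+ to CD43+ and from BC1 to CD43+ cells, in place of 1, 3 and 1, and moved the median of all genes at the last step from -0.08 to -0.19. A threshold of 2 is stricter by construction. It left 2 of 6 falls from BC1 to APLNR+, 3 of 8 rises from APLNR+ to CD31+CD34+ and 0 of 3 falls from CD31+CD34+ to CD43+ cells. With a filter of 5 FPKM, 1 member was highest in BC1 and 1 in APLNR+ cells, in place of 3 and 2. Raising the detection limit to 5 FPKM left 16, 14 and 17 members in BC1, APLNR+ and CD31+CD34+ cells, in place of 26, 28 and 27. No paired analysis was possible because each population had 1 library. Variation between cultures and sorts could not be estimated.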

Other observations

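Of 6 listed negative regulators of cytokine signaling, 1 rose and 1 fell at the last step, beside 7.63% and 13.5% of all genes. SOCS1, which blocks JAK kinases, was at 27.4, 135, 2.82 and 1.62 FPKM in BC1, APLNR+, CD31+CD34+ and CD43+ cells and was highest in APLNR+ cells. SOCS3 was at 19.5, 58.2, 60.2 and 3.48 FPKM and fell by 3.77 at the last step. USP18, an interferon-induced inhibitor that removes ISG15 from proteins and binds IFNAR2, was at 1.79, 1.02, 0.298 and 16.6 FPKM and rose by 3.76, at the step at which ISG15 rose by 4.86.

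Of 6 listed APOBEC3 cytidine deaminases, which edit viral DNA, 4 rose from BC1 to APLNR+ cells, beside 9.15% of all genes. Of these 4, 3 fell again in CD31+CD34+ cells, where 11.4% of all genes fell. APOBEC3G was at 0.618, 46.4, 4.89 and 12.2 FPKM, APOBEC3F at 1.64, 12.7, 4.54 and 10.8 FPKM and APOBEC3D at 1.63, 12.1, 4.86 and 9.84 FPKM. APOBEC3C rose as well, at 11.6, 35.6, 19.9 and 54.6 FPKM, with a change of -0.81 after APLNR+ cells. APOBEC3B was at 4.74, 5.62, 5.11 and 12.9 FPKM, and APOBEC3H was lowest in APLNR+ cells, at 0.436, 0.0595, 0.549 and 1.62 FPKM. EPSTI1 was also higher in APLNR+ cells, at 3.82 FPKM, than in BC1 and CD31+CD34+ cells, at 0.208 and 0.190 FPKM. TMEM173, the gene of the DNA-pathway adaptor STING, was at 0.259, 0.361, 24.5 and 70.5 FPKM and rose at both later steps. These genes were singled out after their values were seen.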
